A study of Mus musculus with 4 samples.

Results

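The genes of bone morphogenetic protein (BMP) and transforming growth factor-beta (TGF-beta) signalling were followed through RNA-seq libraries of sorted inner-ear cells. Members were taken by symbol alone: every row of the expression table whose name began as those of the BMP, GDF, TGF-beta, activin and inhibin ligands, their BMP, TGF-beta and activin receptors, the Smads, *Id1* to *Id4*, or the *Nog*, *Chrd*, *Grem*, *Fst* and *Bmper* regulators do. This gave 44 of the 12814 genes of the table. In the gene annotation 68 protein-coding genes fit the pattern, and the other 24, among them *Tgfb1*, *Chrd*, *Acvr2b* and *Inhbb*, were not analysed here. By their known products 38 of the 44 are ligands, receptors, Smads, Id proteins or secreted regulators, and 6 have other products.

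The cells came from newborn *Atoh1/nGFP* mice of C57BL/6 background, in which a nuclear green fluorescent protein follows *Atoh1* and marks hair cells (HCs), the sensory cells of the ear. All 4 groups carried this transgene and none was treated. Cells with the fluorescent protein and the epithelial surface protein CD326 were the HCs, and cells with CD326 alone were the epithelial non-sensory cells (ENSCs), a mixture of every epithelial cell that is not a HC. Both were sorted from the cochlea, the hearing organ, and from the vestibular system, the balance organ, and the ears of several mice were pooled for a sort. The design text speaks of triplicates, but each group had 1 column in the table analysed here, treated below as 1 library, which leaves every difference below without a replicate error or a test.

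BMPs, GDFs, TGF-betas and activins are secreted dimers that bring a type II receptor kinase together with a type I receptor kinase. The type I receptor then phosphorylates receptor-regulated Smads (Smad1, Smad5 and Smad9 for most BMPs, Smad2 and Smad3 for TGF-beta and activin), which join Smad4 and enter the nucleus, where the *Id* genes are classical BMP targets. In the developing ear BMP signals pattern the organ, and *Bmp4* marks the flank of the cochlear sensory strip and the vestibular cristae, while follistatin and noggin antagonize activin and BMP ligands. Id proteins bind the dimer partners of basic helix-loop-helix factors such as ATOH1 and keep them from DNA, and loss of *Id* expression accompanies HC differentiation.

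Levels are given as the deposited signal, a quantile-normalized read count with a floor of 20. It has no unit of depth: each column summed to 7830343 and had a median of 120, and sequencing depth is unknown. The lowest signals of 3 libraries carried no ranking, up to 30.5 in vestibular HCs, 24.25 in cochlear HCs and 22.75 in cochlear ENSCs (20 in vestibular ENSCs), and a fold against a signal in that range is written as "at least", computed against its top. Of the 44 members 29 were above this range in every library. Fewer cells of a type and less RNA per cell cannot be told apart in such pooled libraries. Of 10 HC markers, 10 exceeded the ENSC signal 3-fold or more in each organ. The 10 supporting cell markers were less even, of which 4 were lower past 3-fold in cochlear HCs, and 3 lower and 1 higher in vestibular HCs. Of the 5 epithelial markers, 5 were lower past 3-fold in vestibular HCs and 4 in cochlear HCs. Ratios over vestibular ENSCs were lower for genes of higher GC content (across genes, Spearman's rho between GC content and log2 ratio was -0.395 for vestibular HCs over ENSCs, -0.453 for cochlear over vestibular ENSCs and -0.0400 for cochlear HCs over ENSCs), and values corrected for exonic length and GC are given where they end or add a call.

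BMP and TGF-beta genes were mostly genes of the ENSC libraries. Of the 44 members 38 (86.4%) had their highest signal in an ENSC library, against 54.6% of all genes. The highest signal was in cochlear ENSCs for 19 members (43.2%; 21.3% of all genes), in vestibular ENSCs for 18 (40.9%; 33.3% of all genes), in cochlear HCs for 4 (9.09%; 23.7% of all genes) and in vestibular HCs for 2 (4.55%; 21.4% of all genes), and *Tgfb3* had equal signals in the ENSC libraries. The 6 with the highest signal in HCs were *Gdf11*, *Gdf6*, *Inhba* and *Fstl4* (cochlear HCs) and *Bmp2* and *Id4* (vestibular HCs), of which *Gdf11*, *Gdf6* and *Bmp2* were within 3-fold of the ENSCs of that organ. A difference of at least 3-fold in 1 or more of the 4 comparisons was found for 27 members (61.4%; 42.1% of all genes), of which 25 reached a signal of 100, and 17 members passed in none.

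In the cochlea 13 members (29.5%) were at least 3-fold lower in HCs than in ENSCs, where 9.2% of all genes were, and 3 members (6.82%) were at least 3-fold higher, where 8.39% of all genes were. In the vestibular system the lower members were again 13 (29.5%; 14.3% of all genes) and the higher ones 2 (4.55%; 13.8% of all genes). The median log2 ratio of HCs to ENSCs was -0.89 over the members in the cochlea (0 over all genes) and -0.63 in the vestibular system (-0.0045 over all genes). Past 3-fold on the low side in each organ were 5 members, *Chrdl1*, *Id1*, *Id3*, *Tgfbr2* and *Tgfbr3* (597 of all 12814 genes), and none was on the high side in each. With a floor or a pseudocount of 100 these were 2, *Chrdl1* and *Id3* (284 and 189 of all genes). *Tgfbr2* dropped out with a floor of 50, *Tgfbr2* and *Tgfbr3* with a pseudocount of 20, and all 5 at a threshold of 5 (224 of all genes). The share of lower members was above that of all genes in both organs. Higher members, 3 for cochlear and 2 for vestibular cells, were too few in either organ to set their share apart from that of all genes. The vestibular count was 4 after length and GC correction (14.7% of all genes) and 2 with a pseudocount of 100 (5.24% of all genes).

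**Figure D1:**
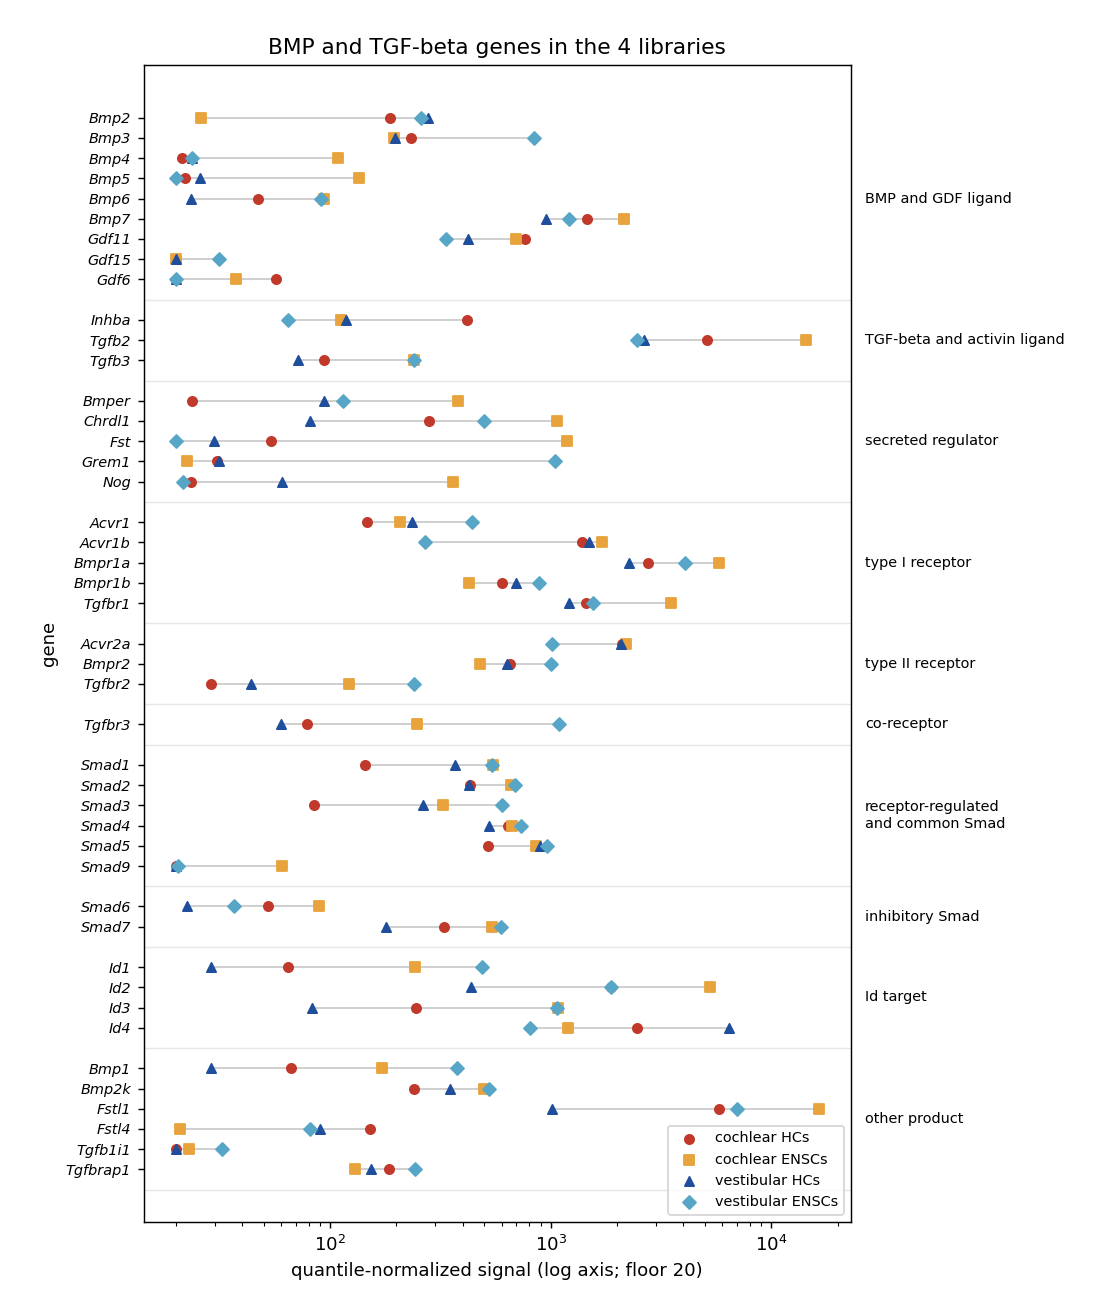
Signal of each of the 44 members in the 4 libraries (log axis), grouped by role, with 1 symbol per library and a line from the lowest to the highest. For 38 of the 44 genes the rightmost symbol is an ENSC library, and *Id4*, *Bmp2*, *Inhba* and *Fstl4* are among the 6 with a HC library there.

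Markers of several other cell types were higher in the ENSC libraries too. Of 12 mesenchyme markers 7 were in the table, and their signals summed to 1344 in cochlear HCs, 14548 in cochlear ENSCs, 380 in vestibular HCs and 2050 in vestibular ENSCs. Past 3-fold, 2 of the 7 were lower in cochlear HCs and 4 in vestibular HCs, and *Pdgfra* alone was higher in HCs, in both organs. Most of the cochlear ENSC sum was *Lum* (12731) and *Col1a2* (1618), whereas *Prrx1* and *Tbx18*, transcription factors of mesenchyme, were at 20 in both cochlear libraries and at 31.25 and 54.75 in vestibular ENSCs. Of 7 endothelial markers only *Kdr* was in the table, with 1462 in vestibular ENSCs and at most 29.75 in the other libraries. The 6 glial markers summed to 1025, 2811, 604.5 and 3989 in the order given, and *Cd68*, the 1 of 7 blood and immune markers in the table, was at most 24.75. Of 6 neuronal markers 3 were listed, with sums of 8058, 5094, 7548.5 and 379, and of 5 melanocyte markers only *Mitf*, with at most 247.5. The part of such cells in the ENSC signals below was not tested.

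Among the 9 BMP and GDF ligands, *Bmp7* had the highest signal per exonic length in the ENSC libraries, with 535 per kb in cochlear and 303 per kb in vestibular ENSCs. *Bmp7*, a ligand of broad epithelial expression, had a signal of 1461 in HCs and 2152 in ENSCs of the cochlea, 954 in vestibular HCs and 1217.5 in vestibular ENSCs, and was within 3-fold in every comparison. *Gdf11*, a close relative of myostatin, was also even, with 765, 695, 421.5 and 337 in the same order.

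*Bmp2* (ENSMUSG00000027358, chromosome 2, 133377895 to 133388621 in mm9) had the largest ratio towards HCs among the ligands. Its signal was 188 in HCs and 26 in ENSCs of the cochlea, 277.5 in vestibular HCs and 257 in vestibular ENSCs. Only the cochlear ENSC library was low, so that *Bmp2* was 7.22-fold higher in cochlear HCs than in cochlear ENSCs (log2 ratio 2.85), within 3-fold in the vestibular system (0.11), and 9.89-fold lower in cochlear than in vestibular ENSCs (-3.31). Both ratios rest on the signal of 26 and were under 3-fold with a floor of 100 (0.91 and -1.36). *Bmp4* and *Bmp5* had the opposite layout. *Bmp4* (ENSMUSG00000021835, chromosome 14, 47003195 to 47010344) stood at 21.25, 109, 23.75 and 23.75, and *Bmp5* (chromosome 9, 75623171 to 75748117) at 22, 135, 25.75 and 20. Cochlear ENSCs were the only library with a signal over 100 for either gene. Cochlear HCs were at least 4.49-fold lower for *Bmp4* and at least 5.58-fold lower for *Bmp5*, and vestibular ENSCs 4.59-fold and at least 6.76-fold lower than cochlear ENSCs. With a floor of 50 none of these 4 ratios passed 3-fold. After length and GC correction the log2 ratio of the ENSC libraries for *Bmp5* was 2.01, against 2.76 as deposited. A lincRNA on the opposite strand covers 46.7% of the exonic length of *Bmp5*, and the strand setting of the counting is not stated, so their reads cannot be told apart.

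*Bmp3*, an antagonistic member of the ligand family, was high in vestibular ENSCs (844) and had 232, 195 and 198 in the other libraries, 4.26-fold lower in vestibular HCs and 4.33-fold lower in cochlear ENSCs. *Bmp6* was low throughout, with 47, 93.75, 23.5 and 90.75. Its vestibular ratio of HCs to ENSCs passed 3-fold as deposited (log2 ratio -1.95), with a bound of at least 2.98-fold against the top of the low range, and did not pass after length and GC correction (-0.85). *Gdf6* had 56.75 in HCs and 37.5 in ENSCs of the cochlea and was at 20 in both vestibular libraries, and *Gdf15* was at 20 everywhere but in vestibular ENSCs (31.5).

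Among the 12 ligands *Tgfb2* had the highest signal per exonic length in every library. Its signals were 5133 in cochlear HCs, 14398 in cochlear ENSCs, 2661 in vestibular HCs and 2452.5 in vestibular ENSCs (2974 per kb in cochlear ENSCs and 507 per kb in vestibular ENSCs). Both cochlear libraries were above both vestibular ones, and the ENSC libraries differed 5.87-fold (log2 ratio 2.55). *Tgfb3* had 94, 241, 71.75 and 241, with the same signal in both ENSC populations and lower signals in HCs. It was 3.36-fold lower in vestibular HCs (log2 ratio -1.75, and -1.15 after length and GC correction, under the threshold) and within 3-fold in the cochlea (-1.36). *Inhba*, which encodes the subunit of activin A, was the only ligand besides *Bmp2* past 3-fold towards HCs. Its signals were 419 in cochlear HCs, 112.5 in cochlear ENSCs, 119 in vestibular HCs and 64.25 in vestibular ENSCs. Cochlear HCs thus stood 3.73-fold above cochlear ENSCs and 3.53-fold above vestibular HCs. The vestibular log2 ratio of 0.89 was under the threshold and passed it after length and GC correction (1.75).

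The largest ratios of the 44 members were those of the secreted regulators *Fst* and *Grem1*, and 4 of the 5 genes of this role were past 3-fold between the ENSC libraries, where 7.8% of all genes were higher and 7.94% lower in the cochlea. *Fst* (ENSMUSG00000021765, chromosome 13, 115242470 to 115249159) encodes follistatin, which binds activin. It had a signal of 53.75 in cochlear HCs, 1191 in cochlear ENSCs, 29.75 in vestibular HCs and 20 in vestibular ENSCs. The cochlear ENSC library was 22.2-fold above cochlear HCs and at least 59.6-fold above vestibular ENSCs. *Nog* (ENSMUSG00000048616, chromosome 11, 89161952 to 89163873) encodes noggin, which sequesters BMPs. It had 23.5, 360, 60.75 and 21.5, again with cochlear ENSCs far above the rest, at least 14.8-fold above cochlear HCs and 16.7-fold above vestibular ENSCs (log2 ratio 4.07, and 4.85 after length and GC correction). In the vestibular system the order of *Nog* was the other way round, with a log2 ratio of HCs to ENSCs of 1.50 (2.67 after length and GC correction, past 3-fold). That ratio was under 3-fold as deposited and rests on low signals, 60.75 and 21.5.

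*Bmper*, a chordin-like protein that binds BMPs, stood at 23.75, 381, 94 and 114. Cochlear HCs had at least 15.7-fold less than cochlear ENSCs, and it was at least 3.88-fold lower in cochlear than in vestibular HCs, and 3.34-fold higher in cochlear than in vestibular ENSCs. The last 2 ratios were under 3-fold with a pseudocount of 20 (log2 ratios -1.38 and 1.58). *Grem1* (ENSMUSG00000074934, chromosome 2, 113586321 to 113598803) encodes gremlin, a further BMP antagonist, and was high in vestibular ENSCs alone, with 30.75, 22.5, 31.5 and 1045.5. The signal in vestibular ENSCs exceeded that in vestibular HCs 33.2-fold and that in cochlear ENSCs by at least 46.0-fold. *Chrdl1*, which encodes another chordin-like BMP binder, was high in ENSCs of both organs, with 281, 1072, 81.5 and 500. HCs were 3.81-fold lower in the cochlea and 6.13-fold lower in the vestibular system (log2 ratio -2.62, and -3.24 after length and GC correction), and the cochlear HC signal was 3.45 times the vestibular one. High signals of *Nog*, *Fst* and *Bmper* were thus found in cochlear ENSCs, the library that also held *Bmp4* and *Bmp5*, and that of *Grem1* in vestibular ENSCs, with *Bmp3*.

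**Figure D2:**
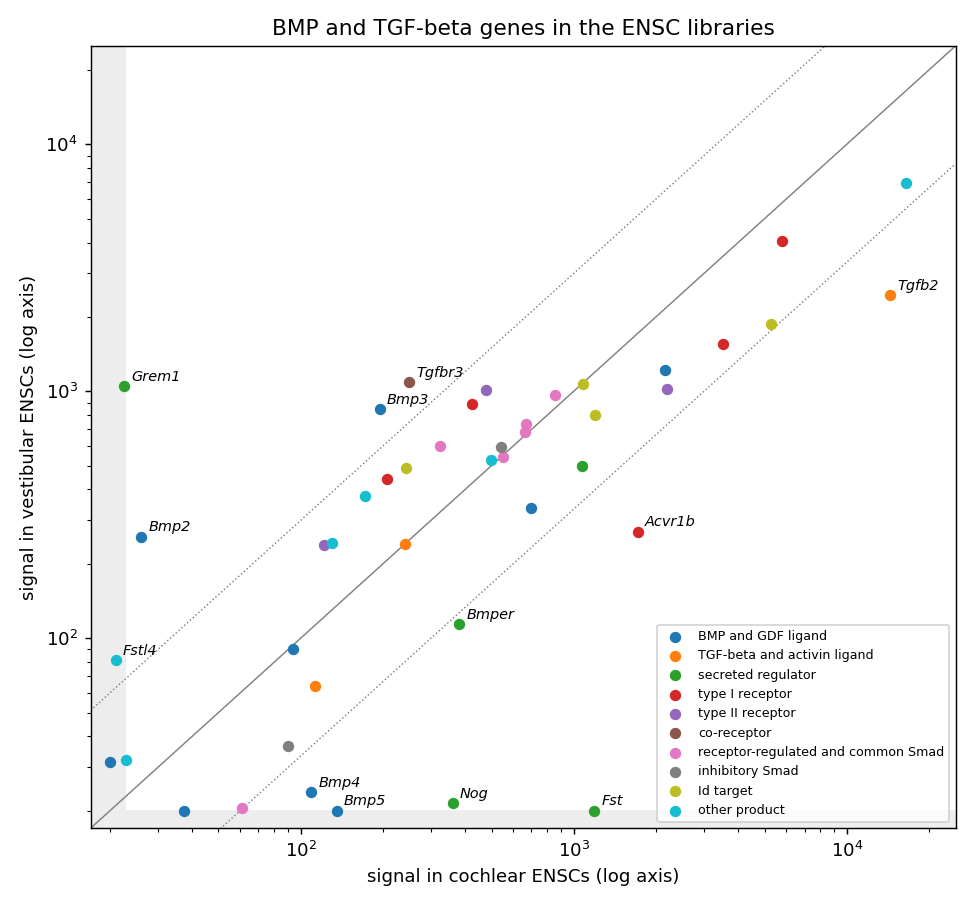
Signals of the 44 members in cochlear ENSCs (x axis) against vestibular ENSCs (y axis), both on log axes, with 1 point per gene coloured by role, the line of equal signal, dotted lines at 3-fold, and shading over the range of low signals without ranking. The 12 genes outside the dotted lines and past 3-fold are named, with *Fst* (1191 and 20) and *Grem1* (22.5 and 1045.5) at the opposite corners.

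Between the ENSC libraries 7 members (15.9%; 7.8% of all genes) passed 3-fold towards the cochlea and 5 (11.4%; 7.94% of all genes) towards the vestibular system. Higher in the cochlea were *Fst*, *Nog*, *Bmp5*, *Acvr1b*, *Tgfb2*, *Bmp4* and *Bmper*, and lower *Grem1*, *Bmp2*, *Tgfbr3*, *Bmp3* and *Fstl4*. Between the HC libraries only 6 members passed, with *Fstl1*, *Id2*, *Inhba* and *Chrdl1* higher (9.09%; 4.21% of all genes) and *Bmper* and *Smad3* lower (4.55%; 5.09% of all genes) in the cochlea. With a pseudocount of 20 *Chrdl1*, *Bmper* and *Smad3* no longer passed between HCs. The median log2 ratios of cochlear to vestibular libraries were 0.018 over the members in ENSCs and 0.24 in HCs (0 over all genes in both).

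The receptors were broadly present, and most type I and type II receptor genes were within 3-fold everywhere. *Bmpr1a*, a type I receptor for BMPs, had the highest signal per kb of the 9 receptor genes in every library but vestibular HCs, where *Acvr1b* and *Acvr2a* exceeded it. Its signals were 2758 in HCs and 5772 in ENSCs of the cochlea, 2276 in vestibular HCs and 4054 in vestibular ENSCs, or 434, 909, 358 and 638 per kb of exon. *Bmpr1b*, the second BMP type I receptor, had 603, 425, 698 and 889.5, and *Bmpr2*, the BMP type II receptor, 655, 477, 633 and 1008. *Acvr1*, a type I receptor of BMPs and activins, had 147.5, 207, 234.5 and 440. These 4 genes were above the low range in HCs of both organs, and none of them passed 3-fold in any comparison.

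Receptors of activin and TGF-beta were less even. *Acvr2a*, the activin type II receptor, had 2115, 2194, 2086 and 1017.5. *Acvr1b* (ENSMUSG00000000532, chromosome 15, 101004556 to 101043032), the activin type I receptor, had 1385, 1712.5, 1489 and 270, with vestibular ENSCs alone being low. It was 5.51-fold higher in vestibular HCs than in vestibular ENSCs (log2 ratio 2.46) and 6.34-fold higher in cochlear than in vestibular ENSCs, while the cochlear HC to ENSC ratio was -0.31. *Tgfbr1*, the type I receptor of TGF-beta, had 1440, 3524, 1209 and 1548.5 and stayed within 3-fold. *Tgfbr2* (ENSMUSG00000032440, chromosome 9, 115993415 to 116084383), the type II receptor without which TGF-beta does not signal, had low levels in HCs. Its signals were 29 in cochlear HCs, 121.5 in cochlear ENSCs, 44 in vestibular HCs and 239.5 in vestibular ENSCs, an excess of ENSCs over HCs of 4.19-fold (cochlea) and 5.44-fold (vestibular system). Per exonic length it reached 3.59 and 5.44 per kb in cochlear and vestibular HCs, against 220 and 185 per kb for *Tgfbr1*. *Tgfbr3* (chromosome 5, 107535589 to 107718648), or betaglycan, which presents TGF-beta2 to the receptors and is also a co-receptor of inhibin, had 78.5, 249, 59.75 and 1088. It was 3.17-fold lower in cochlear HCs and 18.2-fold lower in vestibular HCs, and 4.37-fold lower in cochlear than in vestibular ENSCs. *Tgfbr2* and *Tgfbr3* thus had lower signals in HCs of both organs, though in the cochlea under 3-fold with a pseudocount of 20 (log2 ratios -1.53 and -1.45), whereas *Acvr1b* and *Acvr2a* were close to the ENSC signal in the cochlea and above it in the vestibular system, where the log2 ratio after length and GC correction was 3.12 for *Acvr1b* and 0.34 for *Acvr2a* (1.04 as deposited).

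All 8 Smad genes had lower deposited signals in HCs than in ENSCs of the cochlea, and so did the 7 other than *Smad9* in the vestibular system, mostly by small ratios. *Smad4*, the common partner, had 640.0 in HCs and 668 in ENSCs of the cochlea, 528 in vestibular HCs and 738 in vestibular ENSCs, and *Smad2* 431.5, 663, 429 and 687. *Smad5* had 520, 856, 898 and 965. These 3 genes were within 3-fold in every comparison. *Smad1* (ENSMUSG00000031681, chromosome 8, 81862294 to 81923417) and *Smad3* (ENSMUSG00000032402, chromosome 9, 63494574 to 63605801) stood apart through a low signal in cochlear HCs. *Smad1* had 144, 550.5, 370 and 543.5, and *Smad3* 85, 325, 265 and 600. Cochlear HCs were 3.82-fold below cochlear ENSCs for both genes, and below vestibular HCs 3.12-fold for *Smad3*. The vestibular log2 ratios of HCs to ENSCs were -0.55 and -1.18. *Smad9* was close to the floor and could not be ranked in the vestibular system, with 60.75 in cochlear ENSCs and at most 20.5 elsewhere, and its cochlear call was lost against the top of the low range (at least 2.51-fold lower). Of the inhibitory Smads, which are themselves induced by the pathway, *Smad6* had 52.25, 89.5, 22.5 and 36.75. Its vestibular HC signal was in the low range, and the vestibular log2 ratio turned from -0.71 to 0.66 after length and GC correction. The same correction put *Smad6* past 3-fold higher in cochlear than vestibular ENSCs (log2 ratio 2.20, and 1.28 as deposited). *Smad7* had 330, 540, 178.5 and 594.5. *Smad7* was 3.33-fold lower in vestibular HCs, and under 3-fold after length and GC correction (log2 ratio -0.74).

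The *Id* genes divided into 3 that were lower in HCs and 1 that was higher. *Id1* (ENSMUSG00000042745, chromosome 2, 152561987 to 152563146) had a signal of 64.75 in cochlear HCs, 243 in cochlear ENSCs, 29 in vestibular HCs and 488.5 in vestibular ENSCs. *Id3* (ENSMUSG00000007872, chromosome 4, 135699412 to 135701670) had 246, 1081, 83.25 and 1068. *Id2* (ENSMUSG00000020644, chromosome 12, 25778666 to 25780957) had 1873.5, 5287, 437 and 1878. Both HC libraries were below both ENSC libraries for *Id1* and *Id3*, and for *Id2* cochlear HCs reached the level of vestibular ENSCs. In the cochlea HCs were lower than ENSCs 3.75-fold for *Id1* and 4.40-fold for *Id3*, while *Id2* was under the threshold (log2 ratio -1.50). In the vestibular system they were lower by at least 16.0-fold, 12.8-fold and 4.30-fold for *Id1*, *Id3* and *Id2*. After length and GC correction the vestibular log2 ratios were -3.13, -2.90 and -2.53, all past 3-fold. The *Id2* signal of cochlear HCs was also 4.29 times that of vestibular HCs.

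*Id4* (ENSMUSG00000021379, chromosome 13, 48356796 to 48359405) went the other way. Its signal was 2474 in cochlear HCs, 1197.5 in cochlear ENSCs, 6408 in vestibular HCs and 804 in vestibular ENSCs, so that both HC libraries were above both ENSC libraries. Vestibular HCs were 7.97-fold above vestibular ENSCs (log2 ratio 2.99, and 3.08 after correction), and the cochlear log2 ratio of 1.05 did not pass 3-fold. Per kb of exon *Id4* was the highest of the 4 in both HC libraries, narrowly in the cochlea (1491 against 1475 for *Id2*) and by far in the vestibular system (3860 against 344). A lincRNA of the opposite strand overlaps 10.3% of its exonic length. *Id2* was the highest per kb in both ENSC libraries (4163 and 1479).

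**Figure D3:**
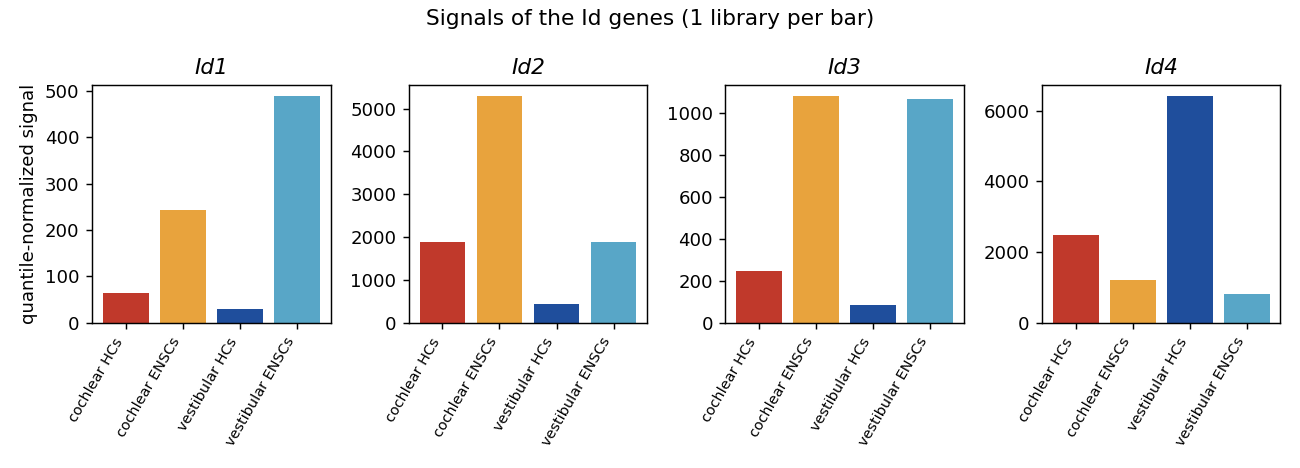
Quantile-normalized signal of *Id1*, *Id2*, *Id3* and *Id4* in the 4 libraries, with 1 bar per library, no error bars because each group had 1 library, and a separate linear axis from 0 for each gene. The ENSC bars are the taller ones of each organ for *Id1*, *Id2* and *Id3*, and the HC bars (2474 and 6408) for *Id4*.

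Because *Id2* and *Id3* were lower and *Id4* higher in HCs, their proximal promoters are shown, from RefSeq for GRCm38.p6 (the positions above are mm9). Each is the 250 bases before the annotated start in the direction of transcription, at chr12:25096093-25096342 on the minus strand for *Id2*, chr4:136143572-136143821 on the plus strand for *Id3* and chr13:48260866-48261115 on the plus strand for *Id4*. Capitals mark GGCGCC, a GC-rich palindrome that Smad proteins bind in BMP-responsive promoters.
Id2: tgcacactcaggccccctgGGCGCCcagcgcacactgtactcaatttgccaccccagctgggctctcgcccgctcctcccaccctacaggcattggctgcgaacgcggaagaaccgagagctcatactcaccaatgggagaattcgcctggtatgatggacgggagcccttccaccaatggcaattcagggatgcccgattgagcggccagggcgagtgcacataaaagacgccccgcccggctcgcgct
Id3: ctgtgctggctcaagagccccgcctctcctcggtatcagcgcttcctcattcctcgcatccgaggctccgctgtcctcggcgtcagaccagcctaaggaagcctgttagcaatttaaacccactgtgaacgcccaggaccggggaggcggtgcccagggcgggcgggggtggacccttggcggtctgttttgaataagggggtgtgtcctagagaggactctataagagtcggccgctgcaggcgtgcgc
Id4: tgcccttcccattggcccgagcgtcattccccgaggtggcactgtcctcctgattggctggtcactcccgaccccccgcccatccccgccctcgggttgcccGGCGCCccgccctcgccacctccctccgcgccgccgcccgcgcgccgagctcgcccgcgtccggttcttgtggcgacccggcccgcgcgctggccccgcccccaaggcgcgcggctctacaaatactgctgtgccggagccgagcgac

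*Id2* and *Id4* held 1 GGCGCC each, which begins 231 and 148 bases before the start, and *Id3* held none in these 250 bases. The motif was therefore in a gene lower in HCs and in the gene higher in HCs. RefSeq promoters were matched by symbol for 29 of the 44 members, *Id1* not among them. Of these 29, 8 (27.6%) held GGCGCC, against 9.54% of 27025 promoters of the same length. The 8 were *Bmp2k*, *Bmpr1a*, *Bmpr2*, *Grem1*, *Id2*, *Id4*, *Smad9* and *Tgfbr1*. This motif is made of G and C alone, and the GC content of these 8 promoters was 62.8% to 83.2%. The 27025 promoters were neither limited to genes of the table nor matched for GC content. The part of GC content in the difference of shares was not tested. The palindrome GTCTAGAC, a site of Smad3 and Smad4, was in none of the 29 and in 0.174% of all. Both motifs read the same on either strand.

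Of the 6 genes with other products 3 passed 3-fold in 1 or more comparisons, as did 42.1% of all genes. *Bmp1*, a metalloprotease that cleaves procollagen and chordin, had 66.75 in cochlear HCs, 172 in cochlear ENSCs, 28.75 in vestibular HCs and 375 in vestibular ENSCs, at least 12.3-fold lower in vestibular HCs than in vestibular ENSCs. The log2 ratio was -3.71, and -2.55 after length and GC correction. *Fstl1*, a secreted follistatin-like glycoprotein, had signals of 5780, 16413, 1017 and 6965. Vestibular HCs were the low library, 6.85-fold below vestibular ENSCs and 5.68-fold below cochlear HCs. Of the 50-nt stretches of *Fstl1* 12.5% were found elsewhere in the genome too, the highest share of the 44. *Fstl4* was a gene of low signal with its highest value in cochlear HCs (152.5, with 21, 89.75 and 81.5 elsewhere), at least 6.70-fold above cochlear ENSCs (under 3-fold with a floor of 100, log2 ratio 0.61). Its log2 ratio of cochlear to vestibular ENSCs was -1.96 and did not pass 3-fold after length and GC correction (-1.47). *Bmp2k* (240, 499, 348 and 527), *Tgfbrap1* (184, 130, 154 and 243) and *Tgfb1i1* (at most 32.25) were within 3-fold in all comparisons.

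The HC to ENSC ratio of a member often depended on the organ. The cochlear and the vestibular ratio have no library in common, and they were at least 3-fold apart for 15 members. For 8 of them (18.2%; 10.9% of all genes) the ratio was higher in the vestibular system, namely *Nog*, *Fst*, *Bmper*, *Bmp5*, *Acvr1b*, *Bmp4*, *Id4* and *Tgfb2*. For 7 (15.9%; 10.5% of all genes) it was lower, namely *Grem1*, *Bmp2*, *Fstl4*, *Tgfbr3*, *Bmp3*, *Bmp1* and *Id1*. After length and GC correction 3 of the 15 no longer passed, *Tgfb2* with a log2 difference of 1.56 (1.61 as deposited), *Bmp1* with -1.30 (-2.34) and *Id1* with -1.43 (-2.17). For *Nog*, *Fst*, *Bmp4*, *Bmp5* and *Tgfb2* the odd library was cochlear ENSCs, with a high signal, and for *Grem1*, *Bmp3* and *Tgfbr3* it was vestibular ENSCs. For *Bmp2* and *Fstl4* it was cochlear ENSCs and for *Acvr1b* vestibular ENSCs, with a low signal. *Bmper* differed through both cochlear libraries, with a high signal in ENSCs (381) and a low one in HCs (23.75). With 1 library in each group these organ differences were not tested.

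**Figure D4:**
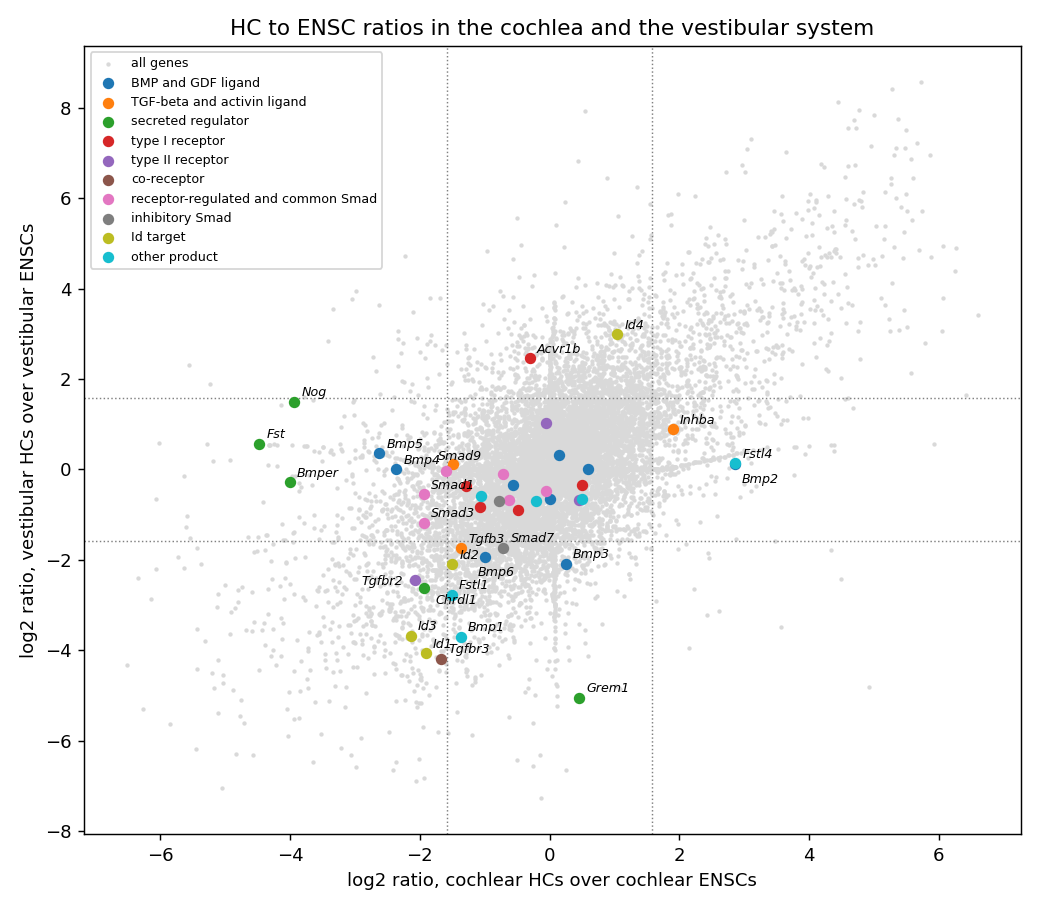
Log2 ratio of HCs to ENSCs in the cochlea (x axis) and the vestibular system (y axis) for all 12814 genes (grey) and the 44 members (coloured by role), with dotted lines at 3-fold and names for members past 3-fold in either organ. *Id1*, *Id3*, *Tgfbr2*, *Tgfbr3* and *Chrdl1* lie past both lines at the lower left, no member lies past both at the upper right, and *Nog*, *Fst* and *Grem1* lie far out on 1 axis only.

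Genes of the pathway outside the name pattern were read from a list of 59, of which 42 were in the table. Of these 42 the signal in HCs was lower past 3-fold for 6 (14.3%) in cochlear cells and for 17 (40.5%) in vestibular cells, where 9.2% and 14.3% of all genes were. After length and GC correction the vestibular count was 12 (10.04% of all genes). The HC signal was higher past 3-fold for 2 (4.76%; 8.39% of all genes) and 4 (9.52%; 13.8% of all genes). After correction these were 2 (8.75% of all genes) and 5 (14.7% of all genes), and the cochlear count of lower genes was 7 (8.66% of all genes). The median log2 ratio over the 42 was -0.61 in cochlear and -1.0 in vestibular cells. *Sostdc1*, a secreted antagonist of BMP and Wnt ligands, had 24.25 in HCs and 838.5 in ENSCs of the cochlea, 29.75 in vestibular HCs and 1255 in vestibular ENSCs, with both HC libraries inside the low range. *Ltbp3*, which binds latent TGF-beta to the matrix, had 56.5, 228, 31.5 and 1128, with a vestibular log2 ratio of -5.16 (-3.82 after length and GC correction). *Thbs1*, an activator of latent TGF-beta, had 1075, 2094, 590.5 and 9920. *Dcn*, or decorin, a proteoglycan that binds TGF-beta, had 181.5, 1828, 30.5 and 250.5, and *Ctgf*, a classical TGF-beta target, 1675, 2913.5, 93 and 424. These 5 genes were lower in HCs than in ENSCs of both organs, past 3-fold in both for *Sostdc1*, *Ltbp3* and *Dcn*.

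*Rgma*, a co-receptor of BMPs, had 89, 843, 99 and 557.5, past 3-fold in both organs as deposited, and its vestibular log2 ratio of -2.49 was -1.18 after length and GC correction. *Fkbp1a*, which holds type I receptors inactive, had 598.5, 1059, 350.5 and 2208. The largest ratios towards HCs among the 42 were those of *Kcp*, *Tll1* and *Vwc2*. *Kcp*, a chordin-like protein that enhances BMP signalling, had 257, 31.25, 2743 and 20, so that HCs were above ENSCs 8.22-fold in the cochlea and at least 137-fold in the vestibular organ. *Vwc2*, a secreted BMP antagonist of the brain, had 397, 88.25, 128 and 20, 4.50-fold and at least 6.41-fold higher in HCs. *Tll1*, a protease related to *Bmp1* that cleaves chordin, had 29.25, 59.25, 2787 and 222. It was 12.6-fold higher in vestibular HCs than in vestibular ENSCs, where *Bmp1* was lower, and 2.03-fold lower in cochlear HCs. Between the organs *Ctgf*, *Dcn* and *Vwc2* were past 3-fold towards the cochlea in both cell populations, and *Tll1* towards the vestibular system in both.

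**Figure D5:**
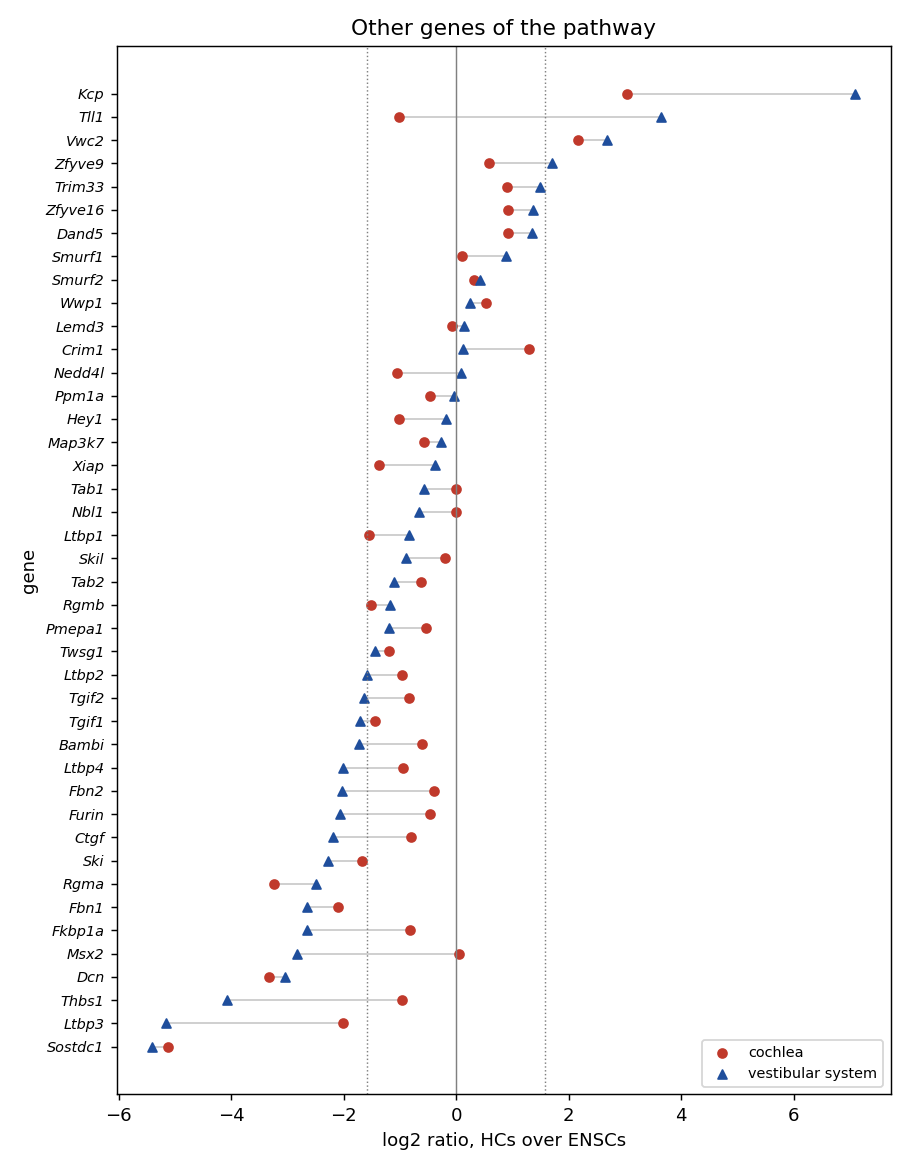
Log2 ratio of HCs to ENSCs in the cochlea (circles) and the vestibular system (triangles) for the 42 other genes of the pathway, ordered by the vestibular ratio, with dotted lines at 3-fold. *Sostdc1* is at the low end in both organs and *Ltbp3* in the vestibular system, *Kcp* and *Vwc2* are at the high end in both, and *Tll1* lies on opposite sides of 0.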

How the data were processed

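Gene expression was measured by RNA-seq in 4 sorted populations. The design text speaks of triplicates, whereas 1 column stood for each population in the deposited table. Per the labels and methods, a NuGEN Ovation kit amplified the RNA. The authors trimmed reads to 50 nt, mapped them to mm9 with TopHat and counted them over ENSEMBL genes with HTSeq. Versions, the ENSEMBL release, the strand setting and the way replicates were combined are not given in the sources used here. What was deposited is a signal: gene counts that the authors quantile-normalized across the 4 columns, with a floor of 20. This equalizes the columns, so a shift of the whole transcriptome cannot be seen, and depth is unknown. Columns named non-HC were matched to the ENSC sample of their organ.

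Log2 ratios were computed from the signals with no added pseudocount, and ratios of at least 3 were counted over all 12814 genes (Python 3.11.15, pandas 2.3.3). The low range of a library ended where the median, over genes of equal signal, of their highest signal elsewhere fell to under 0.25 of its last value after rising at least 5-fold. Positions, exonic length and GC content came from GENCODE for NCBIM37 (mm9). Alternatives were floors of 50 and 100, pseudocounts of 20 and 100, median centring, thresholds of 2, 5 and strictly above 3, a least signal of 100, protein-coding genes only, the low range set to its top, and subtraction of local-regression trends (span 0.3, 2 robust iterations, statsmodels 0.14.6) on exonic length and then GC. The steps were checked on tables with known answers.

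The members, gene lists, thresholds and alternatives were chosen with earlier results of these data known. Values in all libraries are given for members past 3-fold in any comparison with a signal of at least 100 and for the main ligands, receptors, Smads, *Id* genes and inhibitors. Of the other pathway genes, the 10 with the largest ratio among those past 3-fold with a signal of at least 200 are named. Up to 40 stretches of 50 nt per member were searched in the genome, and for 34 of the 44 members every stretch was unique. Exons of 7 members overlap those of another gene on the opposite strand.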

Additional observations from a re-analysis of the deposited data

Results flagged for a closer look

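*Nog* and *Tll1* were picked out because HCs and ENSCs differed in opposite directions in the organs by at least 2-fold in each. For *Nog* the log2 ratio of HCs to ENSCs was -3.89 in the cochlea, with the signal of cochlear HCs set to the top of its low range, and 1.50 in the vestibular system, a difference of 5.39. For *Tll1* the ratios were -1.02 and 3.65, a difference of 4.67. Each value rests on 1 library per group and the difference was not tested. The vestibular HC signal of *Nog* (60.75) and the cochlear signals of *Tll1* (29.25 and 59.25) are low.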

How the results depend on the processing

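The 49 ratios of members past 3-fold had 439 values under alternatives, of which 435 kept their sign, none turned and 4 fell to 0 with a floor of 100, where both signals were at that floor (*Bmp6* vestibular, *Bmper* between HCs, *Fstl4* between ENSCs and *Smad9* cochlear). Floors, pseudocounts, the low range set to its top and the gene filters cannot turn the sign of a ratio past 3-fold. Only median centring and length and GC correction could have done so, and for most of the 439 values the sign was fixed by construction. Of 156 medians and counts recomputed in 12 settings, 122 stayed within 0.25 on the log2 scale or within 1.5 times, and 34 did not. The median log2 ratio of HCs to ENSCs was -0.46 with a floor of 100 and -0.55 with a pseudocount of 100 in the cochlea (-0.35 and -0.37 for vestibular cells). That of the ENSC libraries was 0.34 after length and GC correction. Counts of members follow, each with the share of all genes under the same setting. A floor of 50 left 1 member lower in cochlear than vestibular HCs (3.06%) and 4 with a lower vestibular ratio in the organ difference (7.07%). A floor of 100 left 1 higher (4.07%) and 7 lower (4.41%) in cochlear HCs against ENSCs, 0 lower in cochlear against vestibular HCs (1.90%), 3 lower in cochlear against vestibular ENSCs (4.03%) and 4 with a lower vestibular ratio (4.95%). A pseudocount of 20 left 0 lower in cochlear than vestibular HCs (3.09%). A pseudocount of 100 left 0 higher (3.07%) and 5 lower (3.17%) in cochlear HCs against ENSCs, 2 higher (0.897%) and 0 lower (1.27%) between HCs, 4 higher (2.33%) and 3 lower (2.82%) between ENSCs, and organ differences of 5 higher (3.42%) and 3 lower (3.06%). A threshold of 2 gave 21 lower in the cochlea (17.4%), 4 higher in the vestibular system (23.5%), 10 higher (10.5%) and 5 lower (10.5%) between HCs, 15 higher (17.3%) and 10 lower (17.3%) between ENSCs, and 13 lower in the organ difference (20.9%). A threshold of 5 gave 5 lower in the cochlea (3.99%), 8 lower in the vestibular system (6.82%), 1 higher (1.30%) and 0 lower (2.13%) between HCs and 2 lower between ENSCs (3.21%). With a pseudocount of 100 the cochlear calls of *Inhba*, *Smad1*, *Smad3*, *Id1* and *Tgfbr3* were among those lost. Length and GC correction gave 4 higher members in vestibular HCs against ENSCs (14.7%), the 2 as deposited with *Nog* and *Inhba*, put *Smad6* past 3-fold higher in cochlear than vestibular ENSCs, and ended the vestibular calls of *Smad7*, *Tgfb3* and *Bmp6* and the ENSC call of *Fstl4*. Floors and pseudocounts shrink ratios of low signals by construction. The cause of the changes under correction was not tested. Low signals limit what can be said of *Bmp4*, *Bmp5*, *Bmp6*, *Gdf6*, *Gdf15*, *Smad6*, *Smad9* and *Tgfbr2*. They also limit the ratios of *Bmp2*, *Bmper* and *Fstl4* and the vestibular ratio of *Nog*. No library could be left out, since each group had 1. No paired analysis was possible because the labels carry no replicate numbers and no group had a second library.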
